A study of Mus musculus with 12 samples.

Results

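The HCC53N xenografts are tumors that grew under the skin of mice from 1 line of mouse liver cancer cells, and the comparison described here is that between 3 tumors of mice fed a diet without tryptophan (No-Trp; mice 35, 36 and 37) and 3 tumors of mice fed the complete control diet (mice 40, 41 and 43). These 6 libraries of 12 in the series were taken by their titles, and all genes were used. The other 6 libraries are livers of MYC-ON males on the same diets, FVB mice in which the liver promoter LAP drives tTA and tTA drives a MYC transgene (TRE-MYC) when doxycycline is withdrawn. HCC53N is a primary line made from a tumor in which hepatocytes lacked p53 and carried mutant NRAS. The labels also give the genotype of the cancer cells as FVB MYC ON, and counts of mouse genes cannot tell whether the line holds that transgene. The hosts, which the labels give as NOD-SKID, are the NOD SCID strain of the study's methods, which lacks T and B cells. Those methods name female hosts and report that repeats in males gave no differences. The diets were given for 21 days. The study asked whether liver cancer cells of another origin than the MYC-ON livers respond to the loss of Trp. It reported that the No-Trp diet limited the growth of HCC53N xenografts. Tumor size may therefore move with the diet, and its part in the values below was not tested. Host and graft are both mouse, so reads from the skin, fat, muscle and vessels of the host are counted together with those of the tumor cells, and fewer cells of a type cannot be told apart from less RNA per cell.

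Trp is an essential amino acid that enters cells through carriers for large neutral amino acids, chiefly the pair of Slc7a5 and Slc3a2, while Slc1a5 carries neutral amino acids such as glutamine. In hepatocytes most of it is broken down along the kynurenine pathway, which Tdo2 opens in the liver and Ido1 in other tissues, and indole and kynurenine products can activate the aryl hydrocarbon receptor (AHR). When an amino acid runs short, uncharged transfer RNAs activate the kinase GCN2 (Eif2ak4). Phosphorylation of eIF2 follows, and the transcription factor ATF4 then turns on genes for amino acid uptake and synthesis, the integrated stress response.

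Between 14660963 and 26085349 reads per tumor fell on genes. The reads that the authors' counting placed on no gene were 26.42% to 26.84% of all reads in the No-Trp tumors and 28.54% to 39.42% in the control tumors, the highest in control mouse 43. Rn45s, the unprocessed ribosomal RNA, made up 0.263% to 0.333% of counts in the No-Trp tumors and 0.464% to 0.758% in the control tumors. The files of control mice 41 and 43 carry a mark of resubmission and that of control mouse 40 is named in another pattern, so resubmission moves with the diet. Values of mouse genes are normalized counts, scaled to the mean effective library size of the 6 tumors, and are given in the order of No-Trp mice 35, 36 and 37 and of control mice 40, 41 and 43. The liver origin was visible in all 6 tumors. The transcription factor gene Hnf4a had 4319.8, 7439 and 4401 normalized counts on the No-Trp diet and 6129, 3962 and 3631 on the control diet. Albumin (Alb) had 6749.8, 5461 and 1989.9 against 8208, 1789 and 6962. A tumor had at most 7886 reads of Alb, and a MYC-ON liver at least 113239. Trp53, the gene reported as lost in these cells, still had 538, 424 and 432 against 454, 418 and 460.5 normalized counts. Host cells carry this gene, and whether these reads came from host or tumor cells was not tested. Nras had 5486, 6332 and 9449.5 against 9897, 11554 and 10643, lower in each No-Trp tumor, and its edgeR adjusted p was 0.218. Mouse Myc had 3893, 4371 and 5285 against 4738, 6583 and 6528 (edgeR adjusted p = 0.324). Xist was counted in all 6 tumors at 1483 to 5161 normalized counts, and the Y-linked genes Ddx3y, Eif2s3y, Kdm5d and Uty at no more than 33.7.

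Few genes separated the diets past both thresholds, and 5 of the 36 genes that rose were on the list of adipocyte markers. Of 14704 genes tested with edgeR, 36 were higher (0.245%) and 17 were lower (0.116%) on the No-Trp diet, where a gene is called if its p, adjusted by Benjamini-Hochberg, is 0.05 or less and its log2 fold change is 1 or more in either direction. At an unadjusted p under 0.05, 1150 genes (7.82%) were higher and 1333 (9.07%) lower. Without a threshold on the fold change, 36 and 19 genes had an adjusted p of at most 0.05. DESeq2 gave adjusted p-values to 15342 genes and put 341 (2.22%) higher and 297 (1.94%) lower at 0.05. All 53 called genes were among them. List counts with DESeq2 below are to be read beside these shares. In 1514 genes (10.3%) each No-Trp tumor lay above each control tumor and in 1816 (12.4%) below, and the 53 called genes were all without overlap. The median log2 fold change over all genes tested was −0.004, and scaling by library totals alone moved it to 0.11. The first principal component, with 37.5% of the variance, separated the diets, and the second, with 22.9%, set control mouse 40 and No-Trp mouse 36 at one end and control mouse 43 at the other.

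**Figure D1:**
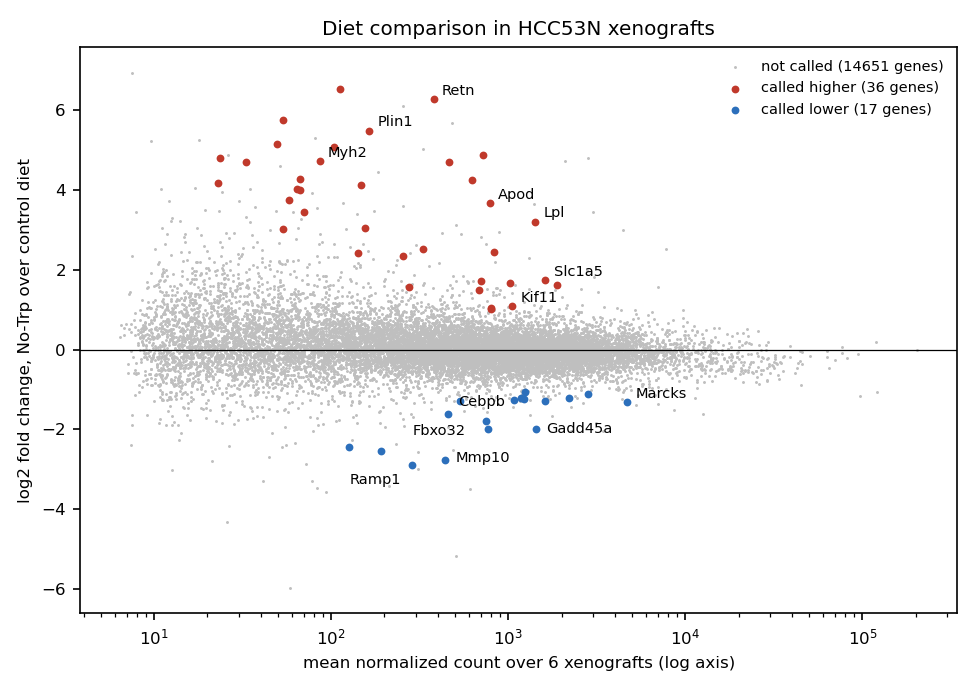
Log2 fold change (No-Trp over control diet, y axis) of 14704 genes against their mean normalized count over the 6 xenografts (x axis, log scale). Red points are the 36 genes called higher, blue points the 17 called lower and gray points the 14651 genes not called; the called rises reach above 6 and the called falls stay above −3.

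The number of calls depended on single tumors. With each tumor left out in turn, 19, 23 and 12 of the 53 genes were still called without No-Trp mouse 35, 36 or 37, and 38, 9 and 9 without control mouse 40, 41 or 43, while all 53 kept their sign and an unadjusted p under 0.05 in each of these fits. With resubmission as a covariate, which compares the No-Trp tumors with control mouse 40 alone, all 53 again kept their sign and an unadjusted p under 0.05 and 3 were called.

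Genes that mark adipocytes were higher in every No-Trp tumor. The list held Adipoq, Plin1, Cidec, Cfd, Lep, Fabp4, Retn, Lipe and Plin4, and its median log2 fold change was 4.70, against −0.004 over all genes. All 9 had an unadjusted p under 0.05 and no overlap between the diets, 5 were called with edgeR, and 9 passed with DESeq2. Of all genes, 7.82% were higher at that unadjusted p, 10.3% had each No-Trp tumor above each control tumor and 2.22% were higher with DESeq2. The summed normalized counts of the list were 14475, 10795 and 23436 in the No-Trp tumors and 732, 1997 and 568 in the control tumors, so the lowest No-Trp tumor, mouse 36, stood above the highest control tumor, mouse 41.

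Retn (chromosome 8, 3655770 to 3660110), which encodes the adipocyte hormone resistin, had 642, 528 and 1078 normalized counts on the No-Trp diet and 4.68, 19.1 and 2.93 on the control diet, with positions here and below on GRCm38. Its log2 fold change was 6.27 (adjusted p = 0.0137 with edgeR, standard error 0.62). Plin1 (chromosome 7, 79720218 to 79732903) encodes perilipin 1, which coats the lipid droplet of adipocytes. It had 313, 251 and 399.6 against 2.34, 7.63 and 11.7 normalized counts, a log2 fold change of 5.48 (adjusted p = 0.00956 with edgeR, standard error 0.50), and an adjusted p of at most 0.0482 in every other fit that tested it. For Cidec (chromosome 6, 113424634 to 113435760), whose product enlarges lipid droplets, the values were 1286, 885 and 2006 against 65.6, 53.4 and 22, a rise of 4.86 on the log2 scale (edgeR adjusted p = 0.0137). Adipoq (chromosome 16, 23146536 to 23158028), the gene of the hormone adiponectin, stood at 831, 444 and 1388 against 18.7, 52.5 and 29.3 and rose by 4.70 (edgeR adjusted p = 0.0299). Plin4 (chromosome 17, 56100591 to 56109803), another lipid droplet coat gene, which overlaps Hdgfl2 on the other strand, went from 38.6, 90.6 and 55.7 to 1310.4, 506 and 1745 normalized counts and rose by 4.25 (edgeR adjusted p = 0.0436). In all of these genes No-Trp mouse 37 was the highest and mouse 36 the lowest of its group, as in the sum of the list.

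The other members of the list were above every control tumor without passing the adjusted threshold. Cfd, which encodes the protease adipsin, had 4887, 3321 and 8186 normalized counts on the No-Trp diet and 66.8, 399 and 114 on the control diet (log2 fold change 4.80, adjusted p = 0.0551 with edgeR, standard error 0.74). The fatty acid carrier gene Fabp4 stood at 4516, 4269 and 7746 against 185, 1134 and 198, with control mouse 41 the highest control (log2 fold change 3.44, edgeR adjusted p = 0.12). Leptin (Lep) had 64.2, 14.2 and 91 against 0, 7.63 and 4.4, and the hormone-sensitive lipase gene Lipe had 626, 577 and 796 against 350.2, 234 and 129. Adjusted p-values of these 2 genes were 0.137 and 0.102 with edgeR and 0.0021 and 0.00113 with DESeq2.

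Further called rises act in the handling of fatty acids. Lpl, the lipoprotein lipase gene, had 1898, 2455 and 3296 normalized counts on the No-Trp diet and 142, 317 and 373 on the control diet (log2 fold change 3.20, adjusted p = 0.0299 with edgeR, standard error 0.38). Acacb, which encodes the acetyl-CoA carboxylase of the mitochondrial surface, stood at 135, 336 and 362 against 8.2, 18.1 and 22 and rose by 4.11 (edgeR adjusted p = 0.0253). The acyl-CoA synthetase gene Acsl1 went from 545, 410.3 and 526 to 1360.0, 1329 and 2008, a rise of 1.67 (edgeR adjusted p = 0.0247). Pnpla3 (chromosome 15, 84167837 to 84187236), a lipase gene of lipid droplets, had 134, 273 and 195 against 5.86, 4.77 and 7.33 and rose by 5.06 (edgeR adjusted p = 0.00956). The highest No-Trp tumor was mouse 36 in Pnpla3 and mouse 37 in Acacb, and mouse 35 was the lowest in both. Which cells this RNA came from was not tested. Of the 36 genes called higher, 9 were members of the lists for adipocytes, skeletal muscle or lipid metabolism and 22 were in no list. The lists are short, and absence from them does not show that the RNA came from other cells.

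Skeletal muscle markers moved in the same direction with more spread among the controls. Myh2 (chromosome 11, 67171027 to 67197517), a fast myosin heavy chain gene, had 139.5, 111 and 246 normalized counts on the No-Trp diet and 2.34, 2.86 and 14.7 on the control diet, and rose by 4.72 on the log2 scale (adjusted p = 0.0436 with edgeR, standard error 0.70). Myl1, a fast myosin light chain gene that was not on the list, had 101, 87.4 and 135 against 5.86, 2.86 and 16.1 (log2 fold change 3.75, edgeR adjusted p = 0.0499). The list of 10 muscle genes had a median log2 fold change of 2.28, with 8 members higher at an unadjusted p under 0.05, against 7.82% of all genes. The list had 1 gene called with edgeR and 3 higher with DESeq2, against 2.22% of all genes higher with DESeq2. Its median was 4.19 without control mouse 43. Its summed normalized counts were 1446, 1069 and 1984 against 70, 94 and 654. Control mouse 43 stood well above the other controls in this sum, as it did for the actin gene Acta1, which had 504, 346 and 711 against 15.2, 40.1 and 202 normalized counts (edgeR adjusted p = 0.212).

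**Figure D2:**
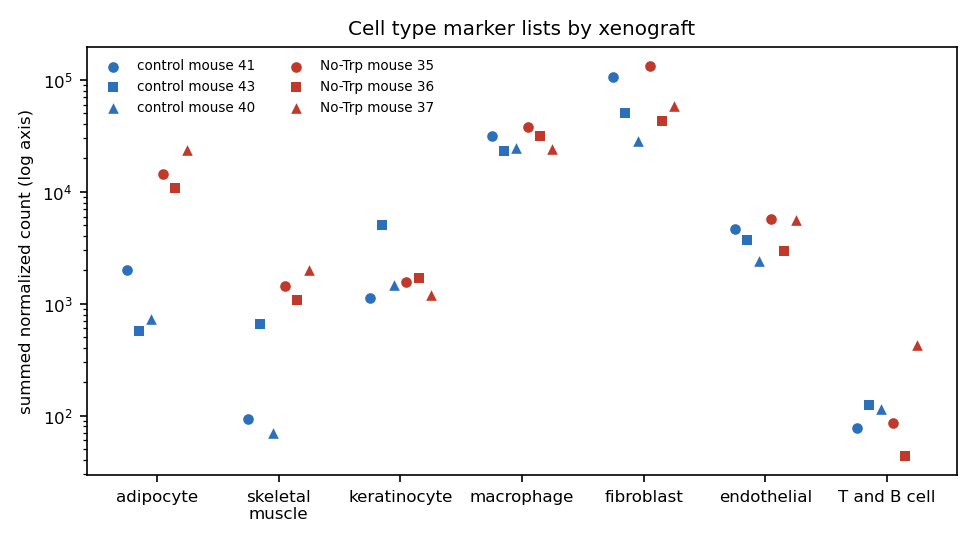
Summed normalized counts (y axis, log scale) of 7 lists of cell type markers in each xenograft; blue symbols are the control mice and red symbols the No-Trp mice, one symbol per mouse. The adipocyte and skeletal muscle sums of the 3 No-Trp tumors lie above those of the 3 control tumors, and the sums of the other 5 lists overlap.

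Markers of macrophages, fibroblasts, endothelium and keratinocytes overlapped between the diets in their sums. Keratinocyte markers summed to 1562, 1686 and 1199 against 1476, 1126 and 5068, with control mouse 43 the highest. Their median log2 fold change was −0.78, and 0.54 without control mouse 43. Macrophage markers summed to 37853, 31266 and 23924 against 24574, 31402 and 23157 (median −0.01), fibroblast markers to 131267, 42439 and 58217 against 28571, 105690 and 50732 (median 0.38) and endothelial markers to 5710, 2974 and 5542 against 2388, 4611 and 3682 (median 0.23). Of these 4 lists, 1 gene passed the adjusted threshold of edgeR, Lor, and 6 of 38 tested members had an unadjusted p under 0.05 in either direction, among them Cd163 of macrophages at 2359, 2724 and 1453 against 321, 693 and 321 (edgeR adjusted p = 0.0551). At that unadjusted p, 7.82% of all genes were higher and 9.07% lower. The other 9 marker lists, for neutrophils, dendritic cells, T and B cells, NK cells, mast cells, pericytes, erythroid cells, cholangiocytes and Schwann cells, held 47 tested genes. Of these, 0 passed the adjusted threshold of edgeR, 7 were higher and 3 lower at an unadjusted p under 0.05 (7.82% and 9.07% of all genes), and DESeq2 put 1 higher and 1 lower. Their medians were 0.97 for 6 neutrophil genes, 1.27 for 5 NK cell genes, 1.23 for 5 mast cell genes, 1.09 for 2 T cell genes and between −0.15 and 0.53 for the rest, and every NK and mast cell gene had a log2 fold change above 0. The neutrophil sums alone of these 9 lists did not overlap, at 855 to 1095 on the No-Trp diet and 622 to 829 on the control diet. T and B cell markers summed to at most 431, in No-Trp mouse 37, in hosts that lack these cells. The part of RNA from fat, muscle and other host cells in the called rises was not tested.

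The called genes described next were outside the adipocyte, muscle and lipid lists, which does not tell whether adipocytes express them. Apod (chromosome 16, 31296192 to 31314808) is the gene of the secreted lipocalin apolipoprotein D. It had 1122, 1750.4 and 1499 normalized counts on the No-Trp diet and 66.8, 153 and 125 on the control diet. It rose by 3.66 on the log2 scale (adjusted p = 0.00956 with edgeR, standard error 0.32) and had an adjusted p of at most 0.0482 in every other fit. Serpina3c (chromosome 12, 104146382 to 104153870), a serine protease inhibitor gene in a cluster of similar copies, had 194, 135 and 385 reads on the No-Trp diet and 2, 3 and 1 on the control diet. With so few control reads, its fitted log2 fold change of 6.52 (edgeR adjusted p = 0.0137) depends on the prior count. The same holds for Timp4 (chromosome 6, 115241892 to 115252205), an inhibitor of matrix metalloproteinases that lies within Syn2 on the other strand, with 141, 71 and 137 reads against 0, 5 and 0 (log2 fold change 5.74, edgeR adjusted p = 0.0499). The gene 1100001G20Rik (chromosome 11, 83746940 to 83752642) had 135, 81.1 and 167 against 7.03, 7.63 and 4.4 normalized counts and rose by 4.28 (edgeR adjusted p = 0.0137). Called genes of secreted or membrane proteins with higher counts included Lrg1, a leucine-rich glycoprotein, at 1622, 882 and 1694 against 228, 249 and 298, and Steap4, a metalloreductase, at 697, 380.5 and 621 against 78.5, 136 and 77.7. They rose by 2.44 and 2.53 (edgeR adjusted p = 0.0137 and 0.0259). Hsd11b1, which regenerates active glucocorticoids, rose by 2.35, from 71.5, 80.2 and 99.7 to 425, 361 and 493 normalized counts (edgeR adjusted p = 0.0137). Mgst1, a microsomal glutathione transferase, rose by 1.71, from 282, 402 and 302 to 1282, 930.3 and 1021 (edgeR adjusted p = 0.0206). F13a1 and Fcna, the coagulation factor XIII A chain and the lectin ficolin A, which macrophages make, rose by 1.61 and 1.50. F13a1 stood at 2931, 3602 and 1967 against 959, 1021 and 808 and Fcna at 1069, 1182 and 771 against 348, 375 and 345 (edgeR adjusted p = 0.0366 and 0.0259).

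The remaining 11 called rises had log2 fold changes between 1.57 for Chpt1, a gene of phosphatidylcholine synthesis, and 5.14 for Adig, which encodes the adipocyte protein adipogenin. Adig had 76, 129 and 121 reads on the No-Trp diet and 3, 4 and 0 on the control diet, and Tshr, the thyrotropin receptor gene, 58, 47 and 50 against 0, 3 and 1, so their fitted values also depend on the prior count. Lgals12, a galectin gene of adipocytes, stood at 95.9, 62.2 and 206 against 4.68, 12.4 and 4.4 normalized counts, and Abcd2, a peroxisomal carrier of long fatty acids, at 349, 166 and 311 against 18.7, 47.7 and 33.7. Fgfr2, a growth factor receptor gene, stood at 295, 142 and 278 against 34, 59.2 and 39.6. The others were Acvr1c, Slc22a3, Klhdc7a, B3galt2 and Adora1. In 10 of these 11 genes, Chpt1 being the exception, no control tumor exceeded 59.2 normalized counts. The called genes of this paragraph, with Myl1, Lrg1, Steap4, Hsd11b1, Mgst1, F13a1 and Fcna, were chosen after their values were seen.

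The called falls included growth arrest genes and secreted proteins. Ramp1 (chromosome 1, 91179822 to 91225196), a partner of the receptor for the neuropeptide CGRP, had 90.7, 50.4 and 61.3 normalized counts on the No-Trp diet and 529, 494 and 493 on the control diet, a log2 fold change of −2.90 (adjusted p = 0.00956 with edgeR, standard error 0.27). Adamdec1 (chromosome 14, 68563380 to 68582095), a secreted metalloprotease gene, stood at 50.5, 57.5 and 60.3 against 319.8, 336 and 324, a narrow range within each diet (log2 fold change −2.54, adjusted p = 0.00956 with edgeR, standard error 0.25). Mmp10 (chromosome 9, 7502352 to 7510240), the gene of the matrix metalloproteinase stromelysin 2, fell from 409, 1026 and 862 to 114, 70.9 and 154 (log2 fold change −2.76, edgeR adjusted p = 0.0478). Lor (chromosome 3, 92080271 to 92083142), the loricrin gene of cornified skin, had 39.4, 27.6 and 51.1 against 149.9, 233 and 255 (log2 fold change −2.43, edgeR adjusted p = 0.0436). The highest control value of Lor was that of mouse 43, which also had the highest keratinocyte sum.

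Gadd45a (chromosome 6, 67035096 to 67037457), which is induced by growth arrest and DNA damage, fell from 1527, 2666 and 2644 to 591, 536 and 592 normalized counts (log2 fold change −1.99, adjusted p = 0.0137 with edgeR, standard error 0.22). Its family member Gadd45g had 1283, 1453 and 1247 against 2907, 3874 and 2498 and a log2 fold change of −1.22 (edgeR adjusted p = 0.0436). Fbxo32 (chromosome 15, 58175879 to 58214932), the ubiquitin ligase gene atrogin-1, stood at 353, 371 and 202 against 857, 1612 and 1197 (log2 fold change −1.98, edgeR adjusted p = 0.045). Cebpb (chromosome 2, 167688915 to 167690418), a transcription factor gene that was listed with the integrated stress response and that overlaps Tmem189 on the other strand, had 683, 855 and 654 against 1669, 1832 and 1712. Its log2 fold change was −1.25 (adjusted p = 0.0235 with edgeR, standard error 0.16). Smoc2 (chromosome 17, 14279506 to 14404790), a matricellular protein gene, Rem2 (chromosome 14, 54476100 to 54480431), a small GTPase gene, Marcks (chromosome 10, 37133375 to 37138920), a substrate of protein kinase C, and the growth factor gene Pdgfa (chromosome 5, 138976014 to 138997370) had log2 fold changes of −1.79, −1.62, −1.32 and −1.29 (edgeR adjusted p = 0.0436, 0.045, 0.0211 and 0.0436). The highest of these by count, Marcks, had 2875, 2856 and 2287 against 5917, 6846 and 7252. The other called falls were Id3, Bpgm, Ncam1, Gm14005 and Erdr1, with log2 fold changes between −1.29 and −1.07, of which Erdr1 has near-identical copies that the counting could split. These 5 genes and Gadd45g were chosen after their values were seen.

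Of 7 tested carriers of Trp and other neutral amino acids, Slc1a5 passed the threshold. In 3 each No-Trp tumor lay above each control tumor, against 10.3% of all genes. Slc1a5 (chromosome 7, 16781340 to 16798274) had 1811, 2547 and 3138 normalized counts in the No-Trp tumors and 945, 755 and 543 in the control tumors, with no overlap. Its log2 fold change was 1.74 (adjusted p = 0.0436 with edgeR, standard error 0.26), between 1.55 and 1.94 with each tumor left out. Its adjusted p was above 0.05 in 8 of 14 other fits, among them those without No-Trp mouse 36 or 37 or control mouse 41 or 43, where it was 0.104 to 0.144. Slc7a5 (chromosome 8, 121881150 to 121907694), the light chain of the large neutral amino acid carrier, had 2076, 4299 and 5022 against 1568, 1339 and 1072, a log2 fold change of 1.52 (standard error 0.32) that did not pass with edgeR (adjusted p = 0.1) and did with DESeq2 (adjusted p = 0.000183). The lowest No-Trp tumor in both genes was mouse 35. The heavy chain Slc3a2 stood at 4674, 8376 and 6411 against 5542, 5070.2 and 4310.1, with mouse 35 among the controls (log2 fold change 0.38, edgeR adjusted p = 0.418). Slc7a8, a second light chain, had 525, 293 and 697 against 317, 307 and 309 (edgeR adjusted p = 0.282), and Slc43a1 83, 58.3 and 77.7 against 5.86, 44.8 and 32.3 (edgeR adjusted p = 0.305). Slc43a2 had 809, 785 and 470.1 against 586, 647 and 933 and the aromatic amino acid carrier Slc16a10 964, 1043 and 519 against 1292, 605 and 504, both with overlapping diets. The 7 tested carriers had a median log2 fold change of 0.70, with 3 higher and 0 lower at an unadjusted p under 0.05, against 7.82% and 9.07% of all genes (DESeq2, adjusted: 2 and 0). This median was 1.19 without No-Trp mouse 36, 0.41 without No-Trp mouse 37 and 1.10 without control mouse 41.

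No enzyme of Trp breakdown passed the threshold. The 12 kynurenine pathway genes had a median log2 fold change of 0.15, with 0 genes at an adjusted p of at most 0.05 in edgeR or DESeq2 and 0 at an unadjusted p under 0.05. At that unadjusted p, 7.82% of all genes were higher and 9.07% lower. Tdo2, the first enzyme in the liver, had 219, 169 and 128 normalized counts on the No-Trp diet and 338, 97.3 and 431 on the control diet, the lowest value being that of control mouse 41 (log2 fold change −0.74, adjusted p = 0.501 with edgeR, standard error 0.50). Ido1 had 26.5, 66.2 and 148 against 36.3, 42.9 and 39.6, and rested on mouse 37 (log2 fold change 1.01, edgeR adjusted p = 0.422). The 2 later enzymes of this group that lay above the controls in each No-Trp tumor were the kynurenine hydroxylase gene Kmo, at 77, 66.2 and 60.3 against 44.5, 12.4 and 38.1 and the kynureninase gene Kynu, at 27.4, 37.8 and 44 against 17.6, 18.1 and 26.4 (edgeR adjusted p = 0.314 and 0.393). Such a separation was seen in 10.3% of all genes. The others, Ido2, Afmid, Haao, Acmsd, Aadat, Ccbl1, Ccbl2 and Qprt, had overlapping diets and edgeR adjusted p-values of 0.452 to 0.934. Ccbl2, the most counted, had 989, 1086 and 1514 against 1587, 909 and 632.

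In the indole and serotonin branch, Il4i1, whose product makes indole-3-pyruvate from Trp, had 6, 1 and 7 reads on the No-Trp diet and 3, 2 and 0 on the control diet and was too low to be tested. The serotonin genes Tph1 and Ddc and the monoamine oxidases Maoa and Maob had edgeR adjusted p-values of 0.476 to 0.907, 0 of the 4 having an unadjusted p under 0.05 and 0 an adjusted p of at most 0.05 with DESeq2. Maoa, at 903, 749.9 and 933 against 958, 1149.7 and 953, was lower in each No-Trp tumor.

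AHR and its targets showed no common direction, with a median log2 fold change of −0.00 over 12 tested genes, 6 above 0 and 6 below. The receptor gene Ahr had 2289, 2586 and 2742 normalized counts against 2235, 4346 and 2976 (log2 fold change −0.33, adjusted p = 0.516 with edgeR, standard error 0.23), and its partner Arnt 1382, 1346 and 1856 against 1437, 1679 and 1867. The cytochrome P450 gene Cyp1a1, the target with the widest range, had 12.8, 23.6 and 22.5 against 172, 13.4 and 4.4, so its log2 fold change of −1.69 (adjusted p = 0.511 with edgeR, standard error 1.16) came from control mouse 40. Cyp1b1 stood at 2962, 2299 and 1189 against 2181, 2054 and 2099 and the ADP-ribosyltransferase gene Tiparp at 1759.8, 1702 and 2921 against 1723, 2644 and 2518. Only Ugt1a6a of this list, a glucuronosyltransferase gene that shares exons with its neighbours, had an unadjusted p under 0.05, at 172, 102 and 97.1 against 77.3, 61.1 and 38.1 (edgeR adjusted p = 0.238). At that unadjusted p, 7.82% of all genes were higher and 9.07% lower. The remaining targets Cyp1a2, Nqo1, Aldh3a1, Ugt1a6b, Scin and Umps had overlapping diets and edgeR adjusted p-values of 0.639 or more, and the repressor gene Ahrr, with 9, 2 and 8 reads against 2, 4 and 4, was not tested.

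**Figure D3:**
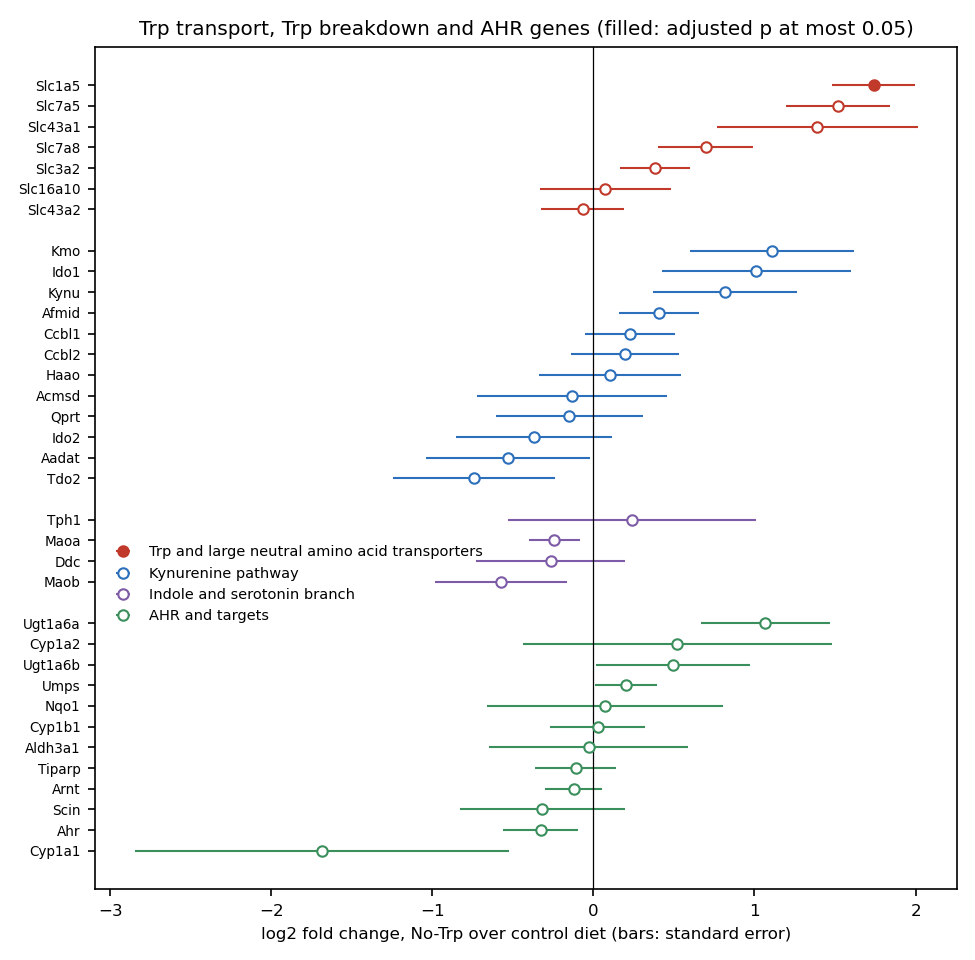
Log2 fold change (x axis, No-Trp over control diet) with its standard error for the tested genes of Trp transport (red), the kynurenine pathway (blue), the indole and serotonin branch (purple) and AHR with its targets (green). Slc1a5 is the only filled point, the 1 gene with an adjusted p of at most 0.05, and the bars of 8 of the 16 kynurenine, indole and serotonin genes and of 7 of the 12 AHR genes cross 0.

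Genes of the integrated stress response were spread widely among the No-Trp tumors. Their median level relative to the control mean was −0.03, 1.17 and 0.54 on the log2 scale in No-Trp mice 35, 36 and 37 and 0.03, 0.08 and −0.17 in control mice 40, 41 and 43, so mouse 35 lay within the controls. Of 34 tested members, 14 were higher and 3 lower at an unadjusted p under 0.05, against 7.82% and 9.07% of all genes, with a median log2 fold change of 0.74 that was 0.34 without No-Trp mouse 36. Cebpb, which fell, was the 1 member past the adjusted threshold of edgeR. DESeq2 put 9 members higher and 1 lower, against 2.22% and 1.94% of all genes.

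The promoters of the ATF4 target genes in this list are shown because several hold the composite element at which ATF4 binds with C/EBP proteins. In RefSeq windows of 250 bases before to 50 bases after the start of transcription (GRCm38.p6), the letters TGATGNAA stood on either strand in 9 of the 30 list members with a window (30%), against 315 of 10945 tested genes with a window (2.88%) and 3.97% of all 32851 windows. The 9 are Asns, Atf3, Chac1, Nupr1, Pck2, Pycr1, Slc7a11, Trib3 and Vldlr. In the 250 bases before the start given here, 5′ to 3′ in the direction of transcription, capitals mark these letters or their reverse complement.
Asns (chr6:7693210-7693459, minus strand): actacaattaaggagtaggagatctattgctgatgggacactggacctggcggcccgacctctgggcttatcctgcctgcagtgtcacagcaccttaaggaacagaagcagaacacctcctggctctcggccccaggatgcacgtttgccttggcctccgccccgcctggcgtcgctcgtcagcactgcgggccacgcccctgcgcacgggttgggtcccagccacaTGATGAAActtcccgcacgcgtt
Chac1 (chr2:119350992-119351241, plus strand): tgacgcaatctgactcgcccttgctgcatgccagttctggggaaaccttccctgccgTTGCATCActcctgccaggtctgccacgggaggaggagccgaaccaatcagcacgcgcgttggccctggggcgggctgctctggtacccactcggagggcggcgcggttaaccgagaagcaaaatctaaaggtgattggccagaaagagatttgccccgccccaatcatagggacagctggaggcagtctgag
Slc7a11 (chr3:50443614-50443863, minus strand): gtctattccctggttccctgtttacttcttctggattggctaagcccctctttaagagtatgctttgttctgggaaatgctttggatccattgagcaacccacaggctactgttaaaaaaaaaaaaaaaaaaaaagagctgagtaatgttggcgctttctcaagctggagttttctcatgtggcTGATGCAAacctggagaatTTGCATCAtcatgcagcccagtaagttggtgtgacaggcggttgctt
The match lies 23 bases before the start in Asns and 193 in Chac1, and 2 matches lie 66 and 47 bases before it in Slc7a11. Among called genes the letters were found in Adig of the 29 higher genes with a window and in Gadd45g, Lor, Mmp10 and Rem2 of the 10 lower ones. The core of the AHR element, GCGTG on either strand, was found in 5 of 9 AHR list members with a window (55.6%), in 53.4% of tested genes, in 9 of 29 genes called higher (31.0%) and in 3 of 10 called lower (30%). A match is a description of these letters and was not tested as a site.

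The genes named next were chosen after their values were seen. Asns, asparagine synthetase, had 1915, 7143 and 5179 normalized counts on the No-Trp diet and 1354, 1555 and 1134 on the control diet (log2 fold change 1.82, adjusted p = 0.132 with edgeR, standard error 0.44, DESeq2 0.00018). Mouse 35 was close to the controls and mice 36 and 37 stood well above them. Chac1, a glutathione-degrading enzyme, had 138, 857 and 304 against 197, 123 and 98.3, with mouse 36 the highest and mouse 35 among the controls (log2 fold change 1.63, edgeR adjusted p = 0.272). The pseudokinase gene Trib3 showed the same order, at 517, 2377 and 953 against 586, 448 and 298 (log2 fold change 1.53, edgeR adjusted p = 0.249). The cystine carrier gene Slc7a11 stood at 593, 2106 and 992 against 484, 415 and 534 and the cationic amino acid carrier gene Slc7a1 at 2208, 4146 and 4324 against 1527, 1907 and 1481. Mthfd2 and Aldh1l2, mitochondrial enzymes of folate metabolism, had 908, 3031 and 1916 against 689, 808 and 546 and 443, 1594 and 2679 against 189.7, 240.4 and 179. The log2 fold changes of these 4 genes were 1.37, 1.12, 1.52 and 2.95, with edgeR adjusted p-values of 0.192, 0.103, 0.157 and 0.102. Other members stood lower. Nupr1, a stress-induced chromatin protein gene whose promoter window holds the ATF4 letters, had 1529.5, 3412 and 2563 against 4491, 6854 and 3276, and Ddit4, an inhibitor of mTORC1, 3491, 3745 and 3995 against 3933, 7463 and 7057 (log2 fold change −0.96 and −0.72, edgeR adjusted p = 0.244 and 0.19). The transcription factor genes Ddit3 and Atf3, the second of which also has the letters, stood at 555, 1429 and 1184 against 1540.2, 2510.3 and 1431 and at 276, 406 and 504 against 390.0, 942 and 497 (log2 fold change −0.79 and −0.63, edgeR adjusted p = 0.331 and 0.422). Transcripts of Atf4 itself, which is controlled mostly through translation, had 5109, 11412 and 6811 against 10410.0, 10423 and 9876 (edgeR adjusted p = 0.498).

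**Figure D4:**
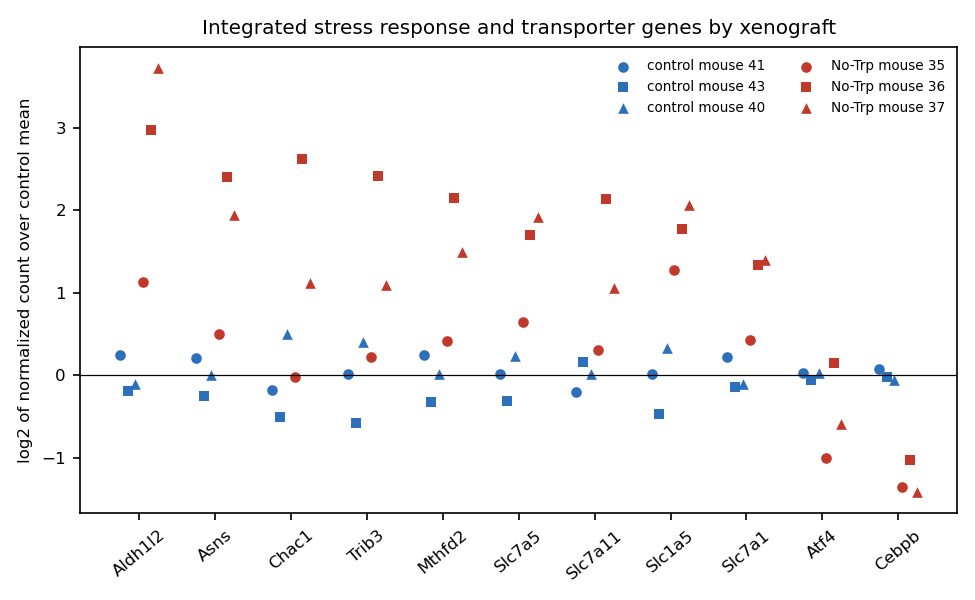
Normalized count of 11 genes of the integrated stress response and amino acid transport in each xenograft, as log2 over the mean of the control mice (y axis); blue symbols are control mice and red symbols No-Trp mice. In Asns, Chac1, Trib3 and Mthfd2 No-Trp mouse 36 is the highest and mouse 35 stands near the controls, while in Slc1a5 and Cebpb all 3 No-Trp tumors stand apart.

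Other lists of the response to amino acid supply had medians closer to that of all genes than the integrated stress response had. At an unadjusted p under 0.05 with edgeR, 7.82% of all genes were higher and 9.07% lower. The 20 cytosolic aminoacyl-tRNA synthetase genes had a median log2 fold change of 0.23, with 6 higher and 0 lower at an unadjusted p under 0.05 and 0 past the adjusted threshold of edgeR or DESeq2. Their order among the No-Trp tumors, −0.04, 0.57 and 0.27 in mice 35, 36 and 37, was that of the integrated stress response, and the median was 0.44 without mouse 35 and 0.13 without mouse 36. The 24 other amino acid transporters had a median of 0.44, with 9 higher and 1 lower at an unadjusted p under 0.05. Of them, 0 passed the adjusted threshold of edgeR and 7 were higher with DESeq2, against 2.22% of all genes. Relative to the control mean, this transporter list stood at 0.31, 0.23 and 0.68 in No-Trp mice 35, 36 and 37. In control mice 40, 41 and 43 it stood at −0.07, 0.05 and 0.03. Of 32 genes that sense amino acids at mTORC1, 2 were higher and 3 lower at an unadjusted p under 0.05 (median −0.04; adjusted, 0 with edgeR and 1 with DESeq2). The 28 autophagy genes had a median of −0.20, with 25 below 0. At an unadjusted p under 0.05, 0 were higher and 5 lower (adjusted, 0 with edgeR and 1 with DESeq2). In 8 of them each No-Trp tumor lay below each control tumor, against 12.4% of all genes. Relative to the control mean, autophagy genes stood at −0.185, −0.185 and −0.167 in No-Trp mice 35, 36 and 37. They stood at 0.034, 0.029 and −0.025 in control mice 40, 41 and 43.

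Genes of mitosis stood higher in the tumors of mice without dietary Trp, a diet that the study reported to limit the growth of HCC53N xenografts. Of 35 tested, 33 had a log2 fold change above 0 and 24 were higher with an unadjusted p under 0.05, against 7.82% of all genes, and the median log2 fold change was 0.56. In 22 of them each No-Trp tumor lay above each control tumor, against 10.3% of all genes. The list stood at 0.39, 0.65 and 0.58 in No-Trp mice 35, 36 and 37 relative to the control mean and at −0.06, 0.01 and 0.04 in control mice 40, 41 and 43. The spindle motor gene Kif11 had 1245, 1437 and 1597 normalized counts on the No-Trp diet and 702, 744 and 579 on the control diet and rose by 1.08 (adjusted p = 0.0436 with edgeR, standard error 0.17). Kif20a, a kinesin of cytokinesis, rose by 1.02, from 472, 498 and 616 to 1055, 1067 and 1096 (edgeR adjusted p = 0.045), and Hmmr, a spindle-associated hyaluronan receptor, by 1.03, from 531, 565 and 487 to 999, 1052 and 1179 (edgeR adjusted p = 0.0436). All 3 were close to the fold change threshold, and with any 1 tumor left out their adjusted p-values were 0.0556 to 0.144. The diets did not overlap in these genes. DESeq2 put 12 members of the list higher and 1 lower, against 2.22% and 1.94% of all genes. Cyclin B1 (Ccnb1) stood at 1791, 2247 and 2434 against 1023, 1314 and 1116 and the proliferation marker Mki67 at 2548, 2838 and 3224 against 2221, 1948 and 1676, with adjusted p-values of 0.0599 and 0.158 with edgeR. Securin (Pttg1) was the 1 member lower at an unadjusted p under 0.05, at 584, 589 and 585 against 974, 772 and 1317. Ccnb1, Mki67 and Pttg1 were chosen after their values were seen.

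The medians of neighbouring lists lay closer to 0. Beside their counts, 7.82% of all genes were higher and 9.07% lower at an unadjusted p under 0.05 with edgeR. The 43 DNA replication genes had a median log2 fold change of 0.18, 36 above 0 and 7 higher with an unadjusted p under 0.05 (adjusted, 0 with edgeR and 1 with DESeq2). The cyclins, their kinases and inhibitors had a median of −0.01, with 3 higher and 5 lower of 19 at an unadjusted p under 0.05, 0 past the adjusted threshold of edgeR and 3 higher and 1 lower with DESeq2. Within this list the cyclin genes Ccne2 and Ccnd2, chosen after their values were seen, had log2 fold changes of 1.27 and 1.03, at 137, 143 and 129.8 against 50.4, 74.4 and 44 and 7014, 4513 and 5027 against 3455, 2889 and 1759.8 normalized counts (edgeR adjusted p = 0.132 and 0.136). The 40 genes that MYC activates had a median of 0.04, the 13 genes of the MYC and MAX network −0.11 and 60 ribosome biogenesis genes 0.15, with 0 genes of the 3 lists past the adjusted threshold of edgeR, 7 higher and 6 lower listings at an unadjusted p under 0.05, and 3 higher and 1 lower with DESeq2. The 17 genes of p53 and its targets had a median of 0.00 and the 19 genes of feedback on RAS and ERK −0.35, with 2 higher and 0 lower and 1 higher and 5 lower at an unadjusted p under 0.05, and 3 genes of the RAS and ERK list lower with DESeq2. The RAS and ERK median was −0.11 without control mouse 41.

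Genes of cytosolic ribosomal proteins stood lower. Of 83 tested, 80 had a log2 fold change below 0 and 51 were lower with an unadjusted p under 0.05, against 9.07% of all genes, and the median was −0.48. None passed the adjusted threshold of edgeR, and 15 were lower with DESeq2, against 1.94% of all genes. Relative to the control mean the list stood at −0.71, −0.51 and −0.23 in No-Trp mice 35, 36 and 37 and at 0.15, −0.12 and −0.04 in control mice 40, 41 and 43. Rpl37, the member with the smallest p, had 9089.9, 11175 and 10779 normalized counts on the No-Trp diet and 20071, 16797 and 16812 on the control diet (log2 fold change −0.79, adjusted p = 0.0684 with edgeR, standard error 0.16). Subunits of oxidative phosphorylation moved in the same direction, with a median of −0.38, 70 of 75 below 0 and 35 lower at an unadjusted p under 0.05 (adjusted, 0 with edgeR and 5 with DESeq2). Ribosomal protein and subunit genes have short transcripts, and transcript length moved with the diet over all genes. The median log2 fold change was −0.18 in the fifth of genes with the shortest transcripts and 0.09 in the fifth with the longest. After a trend on length and GC content was taken off, the medians were −0.41 for ribosomal proteins, −0.31 for the subunits and 0.49 for mitosis.

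Hypoxia and glycolysis genes stood lower as well, with the No-Trp tumors spread along the range. The 19 hypoxia response genes had a median log2 fold change of −0.71. At an unadjusted p under 0.05, 12 were lower and 1 higher, against 9.07% and 7.82% of all genes. DESeq2 put 7 lower and 1 higher, against 1.94% and 2.22% of all genes, and 0 passed the adjusted threshold of edgeR. The list stood at −0.88, −0.80 and −0.39 in No-Trp mice 35, 36 and 37 and at −0.25, 0.34 and −0.02 in control mice 40, 41 and 43. Ndrg1, a stress-regulated gene of differentiation, had 3790.0, 3927 and 4984 normalized counts against 7554, 12542 and 7685 (log2 fold change −1.13, edgeR adjusted p = 0.0748, DESeq2 0.000996). The lipid droplet protein gene Hilpda stood at 1079, 1050.1 and 1525 against 1748, 5057 and 3178 and the vascular growth factor gene Vegfa at 5888, 7817 and 5532 against 7785, 13135 and 7806, where mouse 36 lay above 2 controls. The carbonic anhydrase gene Car12 was the member that was higher, at 669, 801 and 591 against 398, 272 and 277 (edgeR adjusted p = 0.0669, DESeq2 0.000996). For 16 glycolysis genes the median was −0.50, with 15 below 0 and 4 lower at an unadjusted p under 0.05 (adjusted, 0 with edgeR and 1 with DESeq2), and mouse 37 was at the controls, at −0.07. The 4 genes named here were chosen after their values were seen.

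Genes of fatty acid and triglyceride synthesis stood higher, beside the higher adipocyte markers. Their median log2 fold change was 0.40 over 20 genes, with 10 higher and 1 lower at an unadjusted p under 0.05, against 7.82% and 9.07% of all genes, Acacb being the 1 past the adjusted threshold of edgeR and 5 being higher with DESeq2. Scd1, the stearoyl-CoA desaturase gene, had 13356, 6260.3 and 20413 normalized counts against 2499, 2115 and 2325 (log2 fold change 2.53, edgeR adjusted p = 0.0508). Thrsp, a regulator of lipogenesis, had 124, 685 and 242 against 14.1, 23.9 and 8.8, highest in mouse 36 (edgeR adjusted p = 0.0551). Fatty acid synthase (Fasn) stood at 9578, 11313 and 16222 against 6657, 7319 and 7471 (edgeR adjusted p = 0.13). These 3 genes were chosen after their values were seen. The 25 cholesterol genes had a median of 0.25, 22 above 0 and 6 higher at an unadjusted p under 0.05. They stood at −0.01, 0.08 and 0.84 in No-Trp mice 35, 36 and 37, so mouse 37 alone lay above the controls, which ranged from −0.12 to 0.17, and the median was 0.05 without mouse 37. The 30 fatty acid oxidation genes had a median of 0.07, with Acsl1 the 1 called. The 19 genes of lipolysis and lipid droplets, which include adipocyte markers, had a median of 0.55, with 10 higher and 2 lower at an unadjusted p under 0.05, 4 called with edgeR and 9 higher and 1 lower with DESeq2.

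Genes of liver identity did not separate the diets as a group. The 29 tested hepatocyte genes had a median log2 fold change of −0.20, with 3 higher and 0 lower at an unadjusted p under 0.05, against 7.82% and 9.07% of all genes (adjusted, 0 with edgeR and 2 with DESeq2). The one with the largest log2 fold change, the haptoglobin gene Hp, which adipocytes also express, had 9388, 4064 and 10245 normalized counts against 1509, 707 and 763 (log2 fold change 2.99, adjusted p = 0.0506 with edgeR, standard error 0.45). The 18 oncofetal and progenitor genes had a median of −0.19, with 0 higher and 3 lower at an unadjusted p under 0.05 (adjusted, 0 with edgeR and 2 with DESeq2). Sox9, a progenitor transcription factor gene, stood at 1911, 1588 and 1811 against 2803, 3889 and 3451 with no overlap (log2 fold change −0.93, edgeR adjusted p = 0.0515). Hp and Sox9 were chosen after their values were seen. The other lists, those for NAD salvage, RNA polymerase subunits, the unfolded protein response, NRF2, interferon, collagens, metalloproteinases and the circadian clock, had medians between −0.17 and 0.22, and of 191 tested listings Timp4 and Mmp10 alone passed the adjusted threshold of edgeR (DESeq2, 4 higher and 5 lower).

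**Figure D5:**
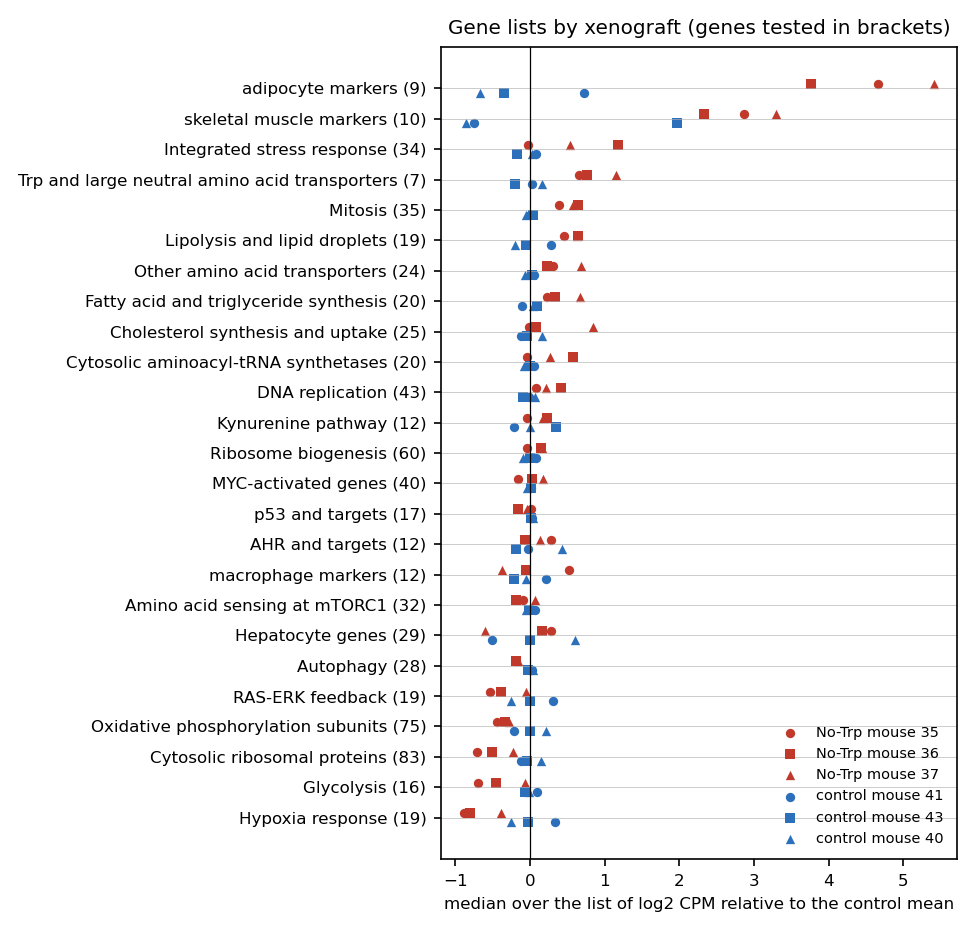
Median over each gene list of log2 CPM relative to the control mean (x axis) in each xenograft, for 25 lists ordered by their median log2 fold change, with the number of tested genes in brackets; blue symbols are control mice and red symbols No-Trp mice. Adipocyte and muscle markers stand farthest to the right, mitosis genes form a narrow group above the controls, and hypoxia genes, glycolysis genes and ribosomal proteins stand on the left.

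The diet effect in the xenografts was compared with that in the MYC-ON livers, where 1311 of 14122 genes (9.28%) were called higher and 1026 (7.27%) lower with edgeR. Of the 36 genes called higher in the xenografts, 27 were tested in the livers and 6 were called higher there, while 3 were called lower. The 6 are 16.7% of all 36 xenograft calls, tested in the livers or not, and 0.458% of the liver calls. Of the 17 called lower, 16 were tested and 1 was called lower in the livers, 5.88% of all 17 xenograft calls and 0.0975% of the liver calls, and 2 were called higher. In a fit over all 12 libraries, the interaction of diet and model had an adjusted p of at most 0.05 in 2420 of 15472 genes (15.6%), among them 18 of the 36 and 12 of the 17. These called genes were chosen for a large diet effect in the same xenograft libraries. Their share is therefore raised by that choice and is no separate result. The livers differ from the xenografts in host strain, site and driver at once, and in sex if the hosts were females. Which of these the difference goes with cannot be told apart. The liver libraries also come from livers in which the study reported fewer and smaller tumors on the No-Trp diet. The share of tumor in the liver RNA may thus move with the diet. Its part in the liver values was not tested.

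Mitosis genes stood on opposite sides of 0 in the models. The median log2 fold change of the mitosis list was −2.07 in the livers, against 0.56 in the xenografts. For Kif11 the log2 fold changes were 1.08 in the xenografts and −2.28 in the livers, and their difference was 3.38 (interaction adjusted p = 0.00936 with edgeR, standard error 0.61). Slc1a5 was at 1.74 and −1.73, a difference of 3.49 (interaction adjusted p = 0.0109 with edgeR, standard error 0.67), although the liver value itself did not pass (edgeR adjusted p = 0.0591). Cebpb was at −1.25 and 1.90, and the difference of −3.12 had the smallest interaction p of the called falls (edgeR interaction adjusted p = 0.00165). For Cidec, at 4.86 and 3.02, and Acsl1, at 1.67 and 1.17, the interaction did not pass (edgeR adjusted p = 0.134 and 0.369).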

How the data were processed

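RNA with poly(A) tails from the xenograft tumors was sequenced by a commercial provider. Per the submitters' processing notes and the study's methods, the authors trimmed reads with Trim Galore, aligned them to mm10 with STAR 2.7.2b, handled the alignments with SAMtools 1.9 and used HTSeq to count reads in genes. The deposited values are raw counts per gene, and the strand setting and the rule for overlapping genes are not given in the sources used here. Reads on no gene (26.42% to 39.42% of each xenograft library) were left out, which leaves 24062 genes and 14660963 to 26085349 counts per tumor. Samples were grouped by their titles. Same-group tumors differed by more than sampling noise, so each counted as 1 replicate, and nothing says whether they came from separate experiments.

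The 6 xenografts were fitted on their own in R 4.3.3 with edgeR 4.0.16 (filterByExpr, TMM scaling, quasi-likelihood test, Benjamini-Hochberg adjustment over all genes tested). A gene is called where its adjusted p is 0.05 or less and its log2 fold change 1 or more in either direction, the thresholds of the study's methods. A standard error is the log2 fold change over the square root of the quasi-likelihood F. DESeq2 1.42.0, other scalings, filters and covariates and each tumor left out were alternatives. Diet and model were crossed in 1 fit over all 12 libraries. Symbols were matched to the GENCODE annotation of GRCm38 (98.2%) and promoters to RefSeq. Named genes are the 10 largest called rises and falls with a mean of at least 100 normalized counts in the higher diet, the 5 smallest adjusted p-values, the members of the Trp and AHR lists with a mean of at least 10, and up to 4 members of each other list past the adjusted p. The comparison, its gene lists and its tests were chosen with earlier results of these data known. The edgeR step was tested on simulated counts first. An exact permutation test of 3 against 3 tumors cannot go below p = 0.1, so adjusted p-values come from the fits across genes.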

Additional observations from a re-analysis of the deposited data

Results flagged for a closer look

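The diet effect differed between the xenografts and the MYC-ON livers for 52 named genes, 14 of them chosen after their values were seen, by the interaction of diet and model in an edgeR fit over the 12 libraries at an adjusted p of at most 0.05. Many of the others were chosen by their diet effect in the xenografts, whose libraries also enter the interaction, so their number is raised by that choice. Values below are the log2 fold change in the xenografts minus that in the livers. Groups of 3 tumors were not tested for single outlying samples.

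Among genes that rose in the xenografts, the differences were 6.51 for Retn, 4.40 for Plin1, 4.02 for Adipoq, 2.54 for Plin4, 2.45 for Lpl, 3.72 for Acacb and 5.57 for Pnpla3. They were 3.32 for Apod, 5.67 for Serpina3c, 6.55 for 1100001G20Rik, 9.45 for Timp4, 9.09 for B3galt2, 2.08 for F13a1 and 1.70 for Fcna. The spindle genes Kif11, Hmmr and Kif20a had 3.38, 3.54 and 2.93. Slc1a5 had 3.49, and the carriers Slc7a5 and Slc43a1, which did not pass in the xenografts, had 3.09 and 2.53. The livers had at most 20 reads of Timp4, 16 of B3galt2, 8 of Plin1 and Adipoq and 6 of Retn, so these fitted differences depend on the prior count and are no bound.

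Among genes that fell in the xenografts, the differences were −4.20 for Ramp1, −4.32 for Adamdec1, −2.87 for Mmp10, −2.39 for Gadd45a, −3.38 for Gadd45g, −3.07 for Fbxo32 and −3.12 for Cebpb. Smoc2 had −2.20, Pdgfa −1.19, Id3 −1.99, Ncam1 −1.23 and Lor, with at most 4 reads in a liver, −3.09. Tdo2 and Ahr, which did not pass in the xenografts, had −4.84 and −1.72.

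The other genes did not pass in the xenografts either. Of the AHR targets, Nqo1 had −3.42 and Umps 1.39, and Trp53 and Myc had 1.07 and −1.66. In the integrated stress response the differences were 2.92 for Asns, 3.13 for Mthfd2, 2.80 for Slc7a1 and −2.02 for Nupr1. They were 5.19 for Cfd, with at most 40 reads in a liver, 4.51 for Fabp4, 4.98 for Thrsp and 2.01 for Fasn, and 2.97 for Mki67, 2.99 for Ccnb1 and 2.66 for Ccne2. Vegfa had −1.91, Car12 3.17 and Sox9 −1.0.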

How the results depend on the processing

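No paired analysis was possible because the diet groups have no mouse number in common. The counts of called genes, 36 higher and 17 lower, moved with most settings. They were 250 and 130 with DESeq2, 56 and 26 with DESeq2's size factors in edgeR, 60 and 11 with library totals, 73 and 45 without a filter, 10 and 5 with at least 10 counts in every library, 3 and 1 with resubmission as a covariate, 18 and 5 in the fit over all 12 libraries, 7 and 2 when the fold threshold was tested (glmTreat) and 36 and 19 with no fold threshold. With each tumor left out, 7 to 35 were higher and 2 to 43 lower. The 53 genes kept their sign in each of these fits that tested them. The number of genes with an interaction, 2420, ranged from 967 to 2960 with each library left out and from 2488 to 2563 otherwise. It was 967 and 1463 without the livers of control mouse 103 and No-Trp mouse 107, 1390 and 1444 without the tumors of No-Trp mice 36 and 37, and 1550 and 1373 without those of control mice 40 and 43. The log2 fold change of Ahr was 0.18 with resubmission as a covariate and that of Cyp1a1 ranged from −2.23 to 1.08 with each tumor left out, the highest without control mouse 40, against −0.33 and −1.69. With resubmission as a covariate Atf3 was at 0.02, against −0.63, and the medians of the integrated stress response, hypoxia and RAS-ERK lists were 0.38, −0.34 and −0.07. The cause was not tested. Members of the Trp and AHR lists that were not called changed sign under some setting in 2 of 6 carriers, 6 of 12 kynurenine genes, 2 of 4 indole and serotonin genes and 10 of 12 AHR genes. Depth limits the genes with few reads, such as Il4i1 and Ahrr, and counting error is not the spread between tumors.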
